A study of Mus musculus with 4 samples.

Results

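The AGPAT and GPAT genes encode the acyltransferases that build phosphatidate, the common precursor of membrane glycerophospholipids and of triacylglycerol. The group was made of the 9 genes Agpat1, Agpat2, Agpat3, Agpat4, Agpat5, Lclat1, Gpam, Gpat3 and Gpat4, matched by symbol among 18560 genes of the expression table, and all 9 were found and passed the filter on low counts. They were selected on their gene names with the CPM and FPKM differences between genotypes already known, so each difference below is given as a description, with its standard error and without a p-value.

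The samples were 4 RNA-seq libraries of CD4+ T cells from the spleen of C57BL/6 mice, all stimulated through CD3 and CD28 to give Th0 cells, which are activated helper T cells without a polarising cytokine. The wild type libraries were replicates 1 and 6, and the knockout libraries, with the genotype Setd2-CD4 cre, were replicates 9 and 12. Setd2 is the enzyme that trimethylates lysine 36 of histone H3 along transcribed genes. The Cd4-driven Cre is active from a thymic stage that precedes the split into CD4 and CD8 cells. Ages, sexes, floxed alleles of the controls and the source animal of each library are not stated in these sources, so the errors and p-values cover the spread of the libraries, and that spread may be technical only. The length of stimulation is 3 days in the treatment labels and 2 days in the design text, and the titles carry the number 48.

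Glycerolipid synthesis starts when a glycerol-3-phosphate acyltransferase (GPAT) puts a first fatty acid on glycerol 3-phosphate, giving lysophosphatidic acid. A lysophosphatidic acid acyltransferase (AGPAT) adds the second and gives phosphatidate, which lipins convert to diacylglycerol and CDP-diacylglycerol synthases carry toward phosphatidylinositol and cardiolipin. Gpam encodes the GPAT of the mitochondrial outer membrane, and Gpat3 and Gpat4 those of the endoplasmic reticulum. Agpat1 and Agpat2 encode the classical enzymes of the endoplasmic reticulum, and loss of AGPAT2 in people causes a generalised lipodystrophy. Agpat3, Agpat4 and Agpat5 encode related enzymes with less settled substrates. Lclat1 encodes an enzyme that re-acylates lysocardiolipin and lysophosphatidylinositol.

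The libraries held between 17284613 and 20418766 counts. Wild type replicate 1 differed less from knockout replicate 9 (chi-square per degree of freedom 30.4) than from wild type replicate 6 (45.5), so the libraries as a whole did not fall into the genotype groups. Setd2 itself was measured at 157 and 174 CPM (counts scaled to library size, with TMM factors) in wild type cells and 127 and 113 CPM in knockout cells, with a log2 difference of -0.47 (SE 0.21, edgeR adjusted p 0.421) that was -0.03 with a trend on gene length removed. A gene-level count adds deleted and remaining exons, so it is no check of the genotype. Summed T cell markers were 1349 and 1537 FPKM (fragments scaled by transcript length and library size) in wild type against 983 and 1026 FPKM in knockout, and each of the 6, Cd4 among them, was present in every library. B cell markers summed to 152 and 106 against 121 and 214 FPKM, and CD8 markers to 138 and 187 against 230 and 167 FPKM. Cd4 stood at 152 and 197 against 131 and 136 FPKM, and Cd8b1, the higher of the CD8 markers, at 100 and 138 against 169 and 126 FPKM. The markers therefore do not show CD4+ T cells alone in any library.

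Agpat4 and Agpat2 were the members with the largest positive differences, and the stretch before a start site of each is shown for that reason. Each is the 250 bases before a RefSeq start site in GRCm38.p6, written in the direction of transcription. The Agpat4 gene span begins further upstream, at 12118485. The Agpat4 window therefore lies inside that span and is not the stretch before the gene. Capitals mark matches to the AP-1 motif (TGANTCA) or to the GC box (GGGCGG), each searched on both strands.
Agpat4 (plus strand, chr17:12119034-12119283): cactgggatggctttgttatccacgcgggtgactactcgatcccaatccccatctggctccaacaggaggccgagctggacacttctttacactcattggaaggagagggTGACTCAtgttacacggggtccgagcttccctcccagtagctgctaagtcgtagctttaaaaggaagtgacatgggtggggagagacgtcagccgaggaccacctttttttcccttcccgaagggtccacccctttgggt
Agpat2 (minus strand, chr2:26604418-26604667): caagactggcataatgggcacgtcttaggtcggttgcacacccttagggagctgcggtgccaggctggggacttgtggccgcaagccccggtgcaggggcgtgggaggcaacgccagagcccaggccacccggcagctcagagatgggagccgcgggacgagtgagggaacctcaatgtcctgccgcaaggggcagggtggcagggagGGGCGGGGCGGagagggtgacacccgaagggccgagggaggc

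The Agpat4 window held 1 AP-1 match, beginning 140 bases before the start site at its end, and no GC box. It held 10 CpG, more than 62.2% of the 32851 windows of this kind in the table. The Agpat2 window held 2 overlapping GC boxes, no AP-1 match and 16 CpG. Among all windows 6.75% held the AP-1 letters and 32.7% the GC box. Of the 9 windows of 7 members with an entry, the Agpat4 window was the 1 with an AP-1 match. The motifs were chosen after the sequences were seen, and a match describes letters, not a bound factor. In GENCODE M21 a longer Agpat4 transcript has its first exon at chr17:12118704-12118840, so the window shown lies in the first intron of that transcript.

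Agpat4 (gene 68262, chromosome 17, 12118485 to 12219649) had 2.61 and 2.64 FPKM in wild type cells and 28.9 and 30.5 FPKM in knockout cells. Both knockout libraries were far above both wild type libraries, and within each genotype the libraries were close together. The expected counts behind these values, rounded, were 94 in each wild type library against 953 and 1185. The fitted log2 fold change was 3.61 (SE 0.23), a 12.2-fold difference, and 21 of the 12816 tested genes (0.164%) had a larger one. In bulk RNA a change in the number of cells of one type and a change in RNA per cell cannot be told apart.

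Agpat2 (gene 67512, chromosome 2, 26593057 to 26604417) stood at 9.5 and 12.1 FPKM in wild type and at 18.8 and 19.6 FPKM in knockout libraries. The groups did not overlap, and the log2 fold change was 0.90 (SE 0.24), or 1.86-fold. Agpat2 is a short transcript, and genes with an effective length (the transcript length open to fragments) of 1 to 2 kb had a median log2 fold change of 0.22 here. With the length trend removed the values were 0.65 for Agpat2 and 3.47 for Agpat4, which lies in the same length class. Leaving out wild type replicate 6 gave an Agpat2 value of 1.07, and leaving out wild type replicate 1 gave 0.74.

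Agpat3 and Agpat1 encode the AGPAT transcripts of highest level in wild type cells. Agpat3 (gene 28169, chromosome 10, 78269174 to 78352497) stood at 76.9 and 63.2 FPKM against 56.1 and 64.6 FPKM. Its groups overlapped, with a log2 fold change of -0.16 (SE 0.23) that was 0.02 without wild type replicate 1. Agpat1 (gene 55979, chromosome 17, 34604195 to 34613449) stood at 44.8 and 45.3 FPKM against 45.8 and 57 FPKM. Knockout replicate 12 held most of that difference: the log2 fold change was 0.26 (SE 0.22) with all libraries and 0.06 without it.

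Agpat5 (gene 52123, chromosome 8, 18846279 to 18884413) stood at 11.1 and 8.05 FPKM against 9.69 and 14 FPKM, and its groups overlapped (log2 0.38, SE 0.29). Its log2 fold change was 0.06 without knockout replicate 12, 0.68 without knockout replicate 9 and 0.52 with the length trend removed. Lclat1 (gene 225010, chromosome 17, 73107985 to 73243368) stood at 9.72 and 11.1 FPKM against 8.41 and 6.05 FPKM. It was the 1 member with both knockout libraries below both wild type libraries, at a log2 fold change of -0.45 (SE 0.23). Genes of 4 to 8 kb, the length class of Lclat1, had a median of -0.24, and with the length trend removed Lclat1 was at -0.27.

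The GPAT genes overlapped between the 2 genotypes by FPKM. Gpat4 (gene 102247, chromosome 8, 23171265 to 23208453), the GPAT gene of highest level, stood at 17.6 and 15.8 FPKM against 16 and 19.2 FPKM (log2 0.16, SE 0.23). Gpat3 (gene 231510, chromosome 5, 100845665 to 100899102) stood at 1.71 and 3.63 FPKM against 3.29 and 3.03 FPKM, with the spread between the wild type libraries wider than the difference of the means (log2 0.32, SE 0.40). Gpam (gene 14732, chromosome 19, 55067635 to 55127319) stood at 2.07 and 2.71 FPKM against 2.62 and 2.05 FPKM (log2 0.20, SE 0.26). By CPM both knockout libraries were above both wild type libraries for Gpam (12.1 and 13 versus 15.7 and 13.1 CPM), but by FPKM they overlapped. The sign of the small differences rested on single libraries for Gpat3 (-0.11 without wild type replicate 1) and Gpat4 (-0.01 without knockout replicate 12). Without wild type replicate 6 the Gpat3 value was 0.96. With the length trend removed the log2 fold changes were 0.48 for Gpam, 0.31 for Gpat3 and 0.31 for Gpat4.

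**Figure D1:**
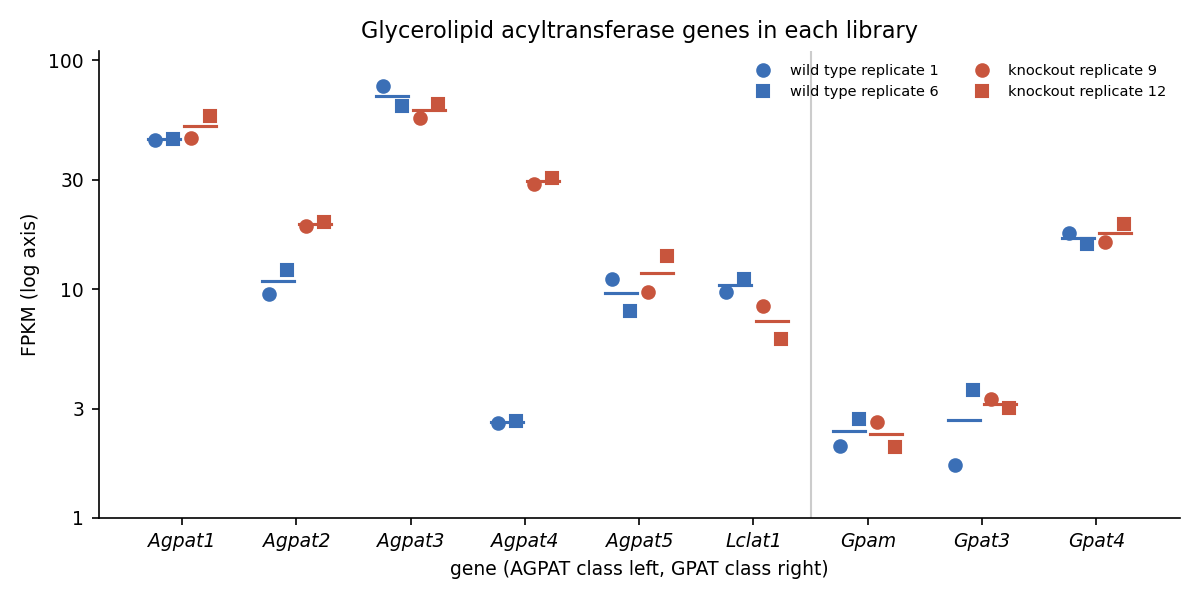
Level of each of the 9 genes in FPKM on a log axis, with 1 point per library (wild type blue, knockout red) and a line at each group mean; the AGPAT class is left of the grey line and the GPAT class right of it. Agpat4 stands at 2.61 and 2.64 FPKM in wild type and at 28.9 and 30.5 FPKM in knockout libraries. By FPKM the genotypes overlap for Agpat3, Agpat5, Gpam, Gpat3 and Gpat4. Among all tested genes, by CPM, both knockout libraries were above both wild type libraries for 25.4% and below them for 24.3%.

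Across the 9 genes, 7 log2 fold changes were positive and 2 negative, with a median of 0.26, against a median of 0 and 49.8% positive over all 12816 tested genes. Without Agpat4 the values ran from -0.45 to 0.90. By CPM both knockout libraries were above both wild type libraries for 4 members, where 25.4% of all tested genes were, and below them for 1, where 24.3% were. The difference was larger than 2 SE for Agpat4 and Agpat2 and smaller for each other member. Among all tested genes 12% had an unadjusted edgeR p under 0.05, a limit near to 2 SE but not equal to it. In the fit across all genes, 1 member was called by edgeR at the adjusted threshold of 0.05. It was Agpat4, which was also the 1 gene called in the whole table (0.0078% of tested genes higher, 0% lower). Since the members were chosen with that contrast known, nothing is read from these counts. Over 12 alternative fits the Agpat4 log2 fold change ran from 3.47 to 3.70. These fits reuse the same libraries, so they add no support to the call, which did not hold in all of them. The log2 fold change was 3.70 with knockout replicate 9 left out and 3.54 with knockout replicate 12 left out. In those fits the spread comes from the wild type pair, and the remaining knockout library is taken to share it.

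**Figure D2:**
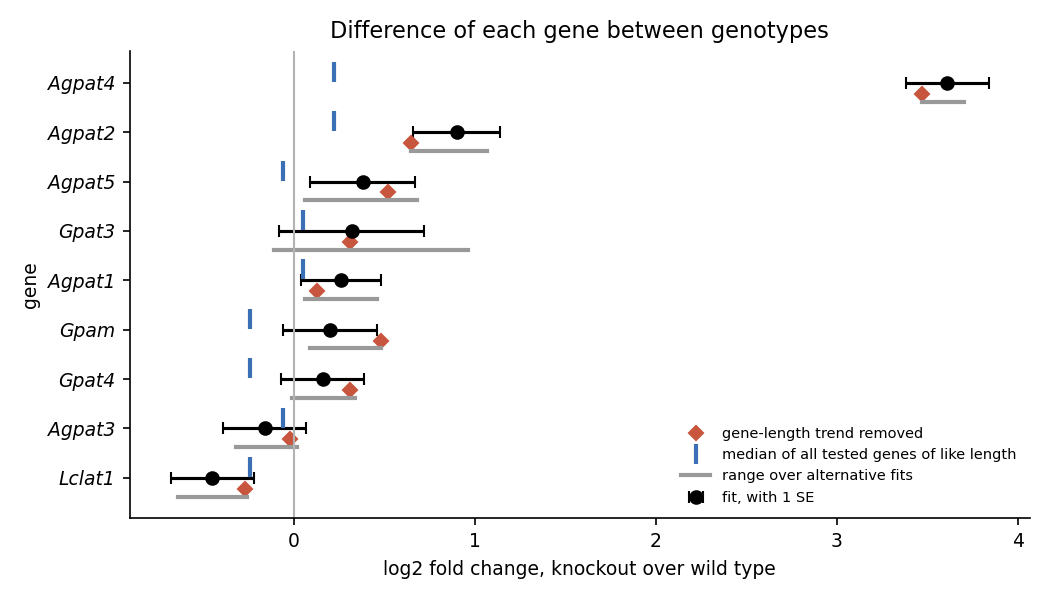
Log2 fold change of each gene, knockout over wild type, from the fit across all genes (black, with 1 SE), with the gene-length trend removed (red), the median of all tested genes in the same length class (blue tick) and the range over 12 alternative fits (grey bar). Agpat4 lies at 3.61, Agpat2 at 0.90, and the other 7 between -0.45 and 0.38.

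Per length, the order of the genes in wild type cells was Agpat3 (70 ± 9.71 FPKM, SD, n = 2), Agpat1 (45.1 ± 0.325), Gpat4 (16.7 ± 1.28), Agpat2 (10.8 ± 1.86), Lclat1 (10.4 ± 0.94), Agpat5 (9.59 ± 2.17), Gpat3 (2.67 ± 1.36), Agpat4 (2.62 ± 0.0212) and Gpam (2.39 ± 0.453). Agpat2, Lclat1 and Agpat5 overlapped with their neighbours in that order, as did the last 3 genes. The other steps were wider than the range of the libraries. In knockout cells Agpat4 (29.7 ± 1.17 FPKM) was the third in order, between Agpat1 (51.4 ± 7.93) and Agpat2 (19.2 ± 0.573), and overlapped with neither. Agpat3 (60.4 ± 6) and Agpat1 overlapped there, as did Agpat2 and Gpat4 (17.6 ± 2.26). Agpat5 (11.8 ± 3.02), Lclat1 (7.23 ± 1.67), Gpat3 (3.16 ± 0.184) and Gpam (2.33 ± 0.403) followed without overlap.

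The make-up of the AGPAT transcripts differed more between genotypes than their sum. The 6 AGPAT genes, Lclat1 included, summed to 155 and 142 FPKM in wild type and to 168 and 192 FPKM in knockout libraries. Without Agpat4 the sums were 152 and 140 against 139 and 161 FPKM, and the groups overlapped. Agpat4 made up 1.69% and 1.85% of the sum in wild type and 17.2% and 15.9% in knockout libraries. The share of Agpat3 was 49.7% and 44.4% against 33.5% and 33.7%, while that of Agpat1 was 29% and 31.8% against 27.3% and 29.7%. Shares of a sum are tied to each other, so a higher Agpat4 lowers the rest. The 3 GPAT genes summed to 21.4 and 22.1 FPKM against 21.9 and 24.2 FPKM, with Gpat4 at 82.3% and 71.3% against 73% and 79.1% of that sum. Total FPKM over all genes was 507409 and 492817 in wild type against 525035 and 576341 in knockout libraries. The AGPAT and GPAT sums were not scaled for these totals, and whether their overlap between genotypes holds after such scaling was not tested.

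**Figure D3:**
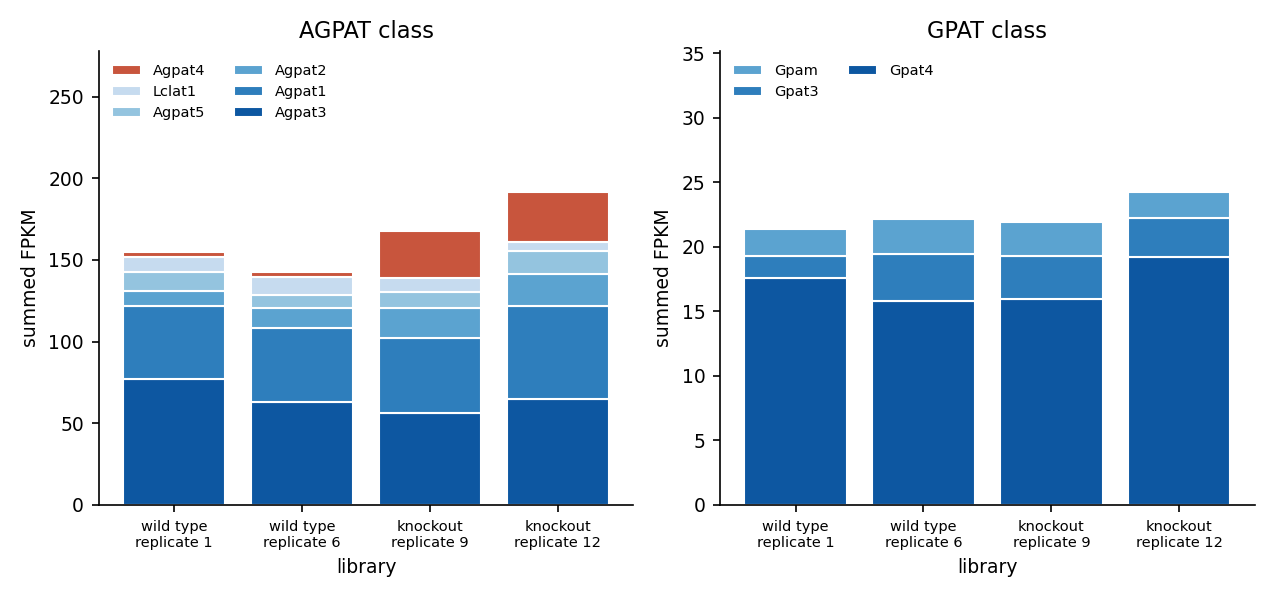
Summed FPKM of the AGPAT class (left) and the GPAT class (right) in each library, as bars stacked by gene. The Agpat4 block (red) is 2.61 and 2.64 FPKM high in wild type and 28.9 and 30.5 FPKM high in knockout libraries, and the GPAT sums lie between 21.4 and 24.2 FPKM.

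The deposited counts and FPKM together give the effective length that the authors' counting assigned to a gene in each library, which moves when the mix of long and short transcripts moves. For Agpat4, with 6 annotated transcripts in GENCODE M21, it was 1831 and 1908 bases in wild type and 1911 and 1902 bases in knockout libraries. The low wild type count of 94 limits the precision of the first 2 values. For Agpat5 (3864 to 3873 bases), Lclat1 (4492 to 4509 bases) and Gpat4 (3987 to 4019 bases) the 4 libraries were close together. Gpam had the widest spread, with 5078 bases in wild type replicate 6 against 5823 in wild type replicate 1 and 5984 and 6068 in knockout libraries. RefSeq gives Gpam start sites in 2 windows, and which of them was used cannot be read from a gene-level table.

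The neighbour of Agpat4 on chromosome 17 that could be tested did not share its difference. Of the genes of the table that start within 500 kb of it, Map3k4, a kinase gene on the opposite strand (12227621 to 12318796), was the 1 with enough counts to test. It stood at 8.03 and 8.65 FPKM in wild type and at 7.05 and 6.47 FPKM in knockout libraries (log2 -0.24, SE 0.20), or 0.02 with the length trend removed. The plasminogen gene Plg and the organic cation transporter genes Slc22a2 and Slc22a3 had at most 6 counts in any library.

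The tested genes whose pattern over the 4 libraries was most like that of Agpat4 were Ptger3, Ccdc184 and Gap43, by the root mean square difference of log2 CPM around each gene's mean (0.21, 0.29 and 0.33). A small prior count was added before taking log2, which narrows the differences of genes with few counts. Ptger3, which encodes a prostaglandin E2 receptor, stood at 0.0509 and 0 CPM versus 1.33 and 1.34 CPM. Ccdc184 stood at 0.56 and 0.303 versus 4.93 and 7.54 CPM, and Gap43, a gene of growing axons, at 0 and 0.0506 versus 1.16 and 0.929 CPM. These genes were near the limit of detection in wild type, unlike Agpat4 with 4.78 and 4.75 CPM versus 55.3 and 61.2 CPM. The fitted log2 fold changes were 5.40 (SE 1.15) for Ptger3, 3.83 (SE 0.57) for Ccdc184 and 5.04 (SE 1.20) for Gap43. That of Agpat4 was 3.61, so the likeness of Ptger3 and Gap43 rests in part on the prior count. With 4 libraries such likeness is a description of the same genotype difference.

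Markers of other cells were read beside Agpat4. The 5 mast cell and basophil markers, Cpa3, Mcpt8, Fcer1a, Ms4a2 and Gata2, summed to 0.4 and 1.15 FPKM in wild type and to 2.98 and 2.58 FPKM in knockout libraries, each of them under 1 FPKM in every library. The Fc receptor gene Fcer1a was listed at 0 in both wild type libraries and at 0.7 and 0.15 FPKM in knockout libraries. Cpa3 (0.05 and 0 against 0.73 and 0.7 FPKM) and Ms4a2 (0.21 and 0.35 against 0.65 and 0.38 FPKM) were also higher in both knockout libraries. Mcpt8 (0 and 0.26 against 0.21 and 0.96 FPKM) and Gata2 (0.14 and 0.54 against 0.69 and 0.39 FPKM) overlapped between genotypes. The 4 NK cell markers summed to 2.07 and 4.02 against 5.06 and 2.98 FPKM. Myeloid markers summed to 6.66 and 13.3 against 7.02 and 8.23 FPKM, and dendritic cell markers to 3.37 and 4.7 against 2.9 and 2.73 FPKM. The 4 globin genes among the erythroid markers summed to 10.8 and 36.2 against 3.71 and 12.1 FPKM. The mast cell sum was higher and the T cell and dendritic cell sums were lower in both knockout libraries, and their part in the Agpat4 difference was not tested.

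The other genes of glycerolipid metabolism were described through 6 lists with 63 genes, of which 51 had enough counts to test. With edgeR 0 of the 51 passed an adjusted p of 0.05 in either direction, where 0.0078% of all tested genes were called higher and 0% lower. With so few calls in the whole table, the count of 0 here and in each list says nothing particular about these genes. At an unadjusted p of 0.05 there were 5 higher and 2 lower, where 6.23% and 5.73% of all tested genes were higher and lower. DESeq2 called 1 of the 51 higher and 0 lower, where it called 0.753% and 0.821% of all genes it tested, and limma-voom called 0. The median log2 fold change of the 51 was 0.12, with 32 positive, beside a median of 0 over all tested genes.

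The supply of glycerol 3-phosphate and acyl-CoA was the list with the most even sign. All 9 genes had a positive log2 fold change, where 49.8% of all tested genes had one, and the list median was 0.34. With edgeR 0 passed, and the unadjusted p was under 0.05 for 1 higher and 0 lower gene. Acsl5, the most abundant long-chain acyl-CoA synthetase gene here, stood at 226 and 187 CPM versus 231 and 269 CPM (log2 0.28, SE 0.22). The mitochondrial glycerol-3-phosphate dehydrogenase gene Gpd2 stood at 48.1 and 47.2 CPM versus 68.4 and 60.4 CPM (log2 0.43, SE 0.21, edgeR adjusted p 0.424). Acsl6, a synthetase gene known best from brain, was at 0.305 and 0.708 CPM versus 2.78 and 1.65 CPM (edgeR adjusted p 0.413). With the length trend removed the log2 fold changes were 0.25 for Acsl5, 0.71 for Gpd2 and 2.09 for Acsl6. Both knockout libraries were above both wild type libraries for 6 of the 9, against 25.4% of all tested genes, and wild type replicate 6 was the lowest library for Gk, Gpd1l, Gpd2, Acsl1, Acsl3, Acsl4 and Acsl5.

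Genes that use phosphatidate were mixed, with 5 of 10 tested genes positive and a median of 0.10. Dgat1, which encodes an enzyme that makes triacylglycerol from diacylglycerol, was the most abundant per length and stood at 64.9 and 96.3 CPM versus 131 and 121 CPM (log2 0.64, SE 0.25, edgeR adjusted p 0.413). Both knockout libraries were above both wild type libraries, and wild type replicate 1 was the lowest. The phosphatase gene Plpp1 stood at 1.17 and 1.06 CPM versus 2.2 and 2.63 CPM (log2 1.11, SE 0.56, edgeR adjusted p 0.437). The lipin genes Lpin1 and Lpin2 had log2 fold changes of -0.19 and -0.27, and the CDP-diacylglycerol synthase gene Cds2 of -0.21. With the length trend removed the values were 0.49 for Dgat1, 0.92 for Plpp1, 0.05 for Lpin1, -0.02 for Lpin2 and 0.21 for Cds2. With edgeR 0 genes of this list passed, and the unadjusted p was under 0.05 for 1 higher and 0 lower gene.

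Phosphatidate also arises when diacylglycerol kinases phosphorylate diacylglycerol or phospholipase D cleaves phosphatidylcholine. This list had a median of -0.24, with 6 of 11 tested genes negative, and 0 genes passed the edgeR test. The 2 with an unadjusted p under 0.05 went in opposite directions. Dgka, the kinase gene that dampens diacylglycerol signalling in T cells, stood at 524 and 642 CPM in wild type against 417 and 337 CPM in knockout libraries (log2 -0.63, SE 0.22, edgeR adjusted p 0.413). Its groups did not overlap. Pld1 was at 0.153 and 0.101 CPM versus 0.986 and 0.929 CPM, under 1 CPM in every library (edgeR adjusted p 0.391). Both knockout libraries were below both wild type libraries for Dgka, Dgkd, Dgkq, Dgkz and Pld2, which is 5 of 11 against 24.3% of all tested genes. With the length trend removed the log2 fold changes of Dgkd, Dgkq and Dgkz were -0.07, -0.03 and -0.12. Those of Dgka and Pld2 were then -0.65 and -0.52.

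**Figure D4:**
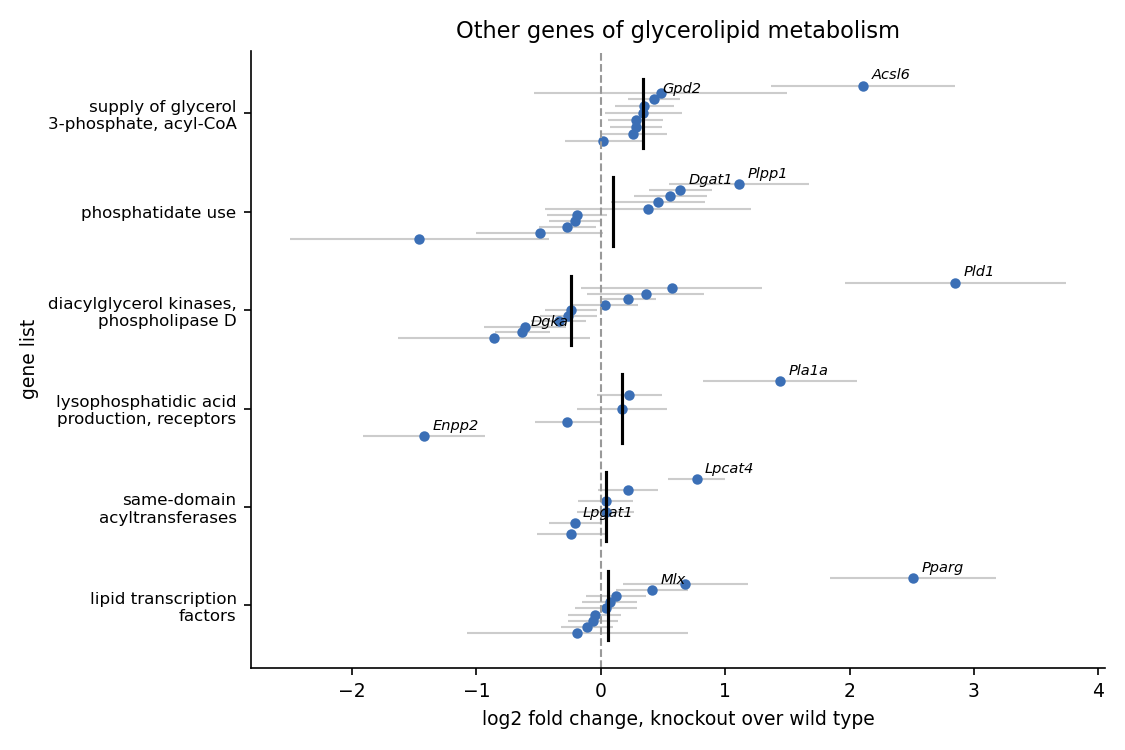
Log2 fold change of the 51 tested genes of the 6 lists, knockout over wild type, with 1 SE as grey bars, the median of each list as a black line, and the 2 genes of smallest p in each list named. The list medians lie between -0.24 and 0.34, and 0 of the 51 genes passed the edgeR test, which 1 of all 12816 tested genes passed.

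Lysophosphatidic acid is the substrate of the AGPAT enzymes and, outside the cell, a ligand of receptors. Enpp2, which encodes autotaxin, the secreted enzyme that makes it, stood at 8.9 and 6.88 CPM versus 1.68 and 4.18 CPM (log2 -1.42, SE 0.49, edgeR adjusted p 0.413). Pla1a, a phospholipase A1 gene, stood at 1.53 and 0.961 CPM versus 4.7 and 2.07 CPM (log2 1.44, SE 0.62, edgeR adjusted p 0.416), with knockout replicate 9 the highest. The receptor gene of highest level, Lpar5, stood at 22 and 16.2 CPM versus 16.4 and 15.4 CPM and overlapped. Of 5 tested genes 0 passed with edgeR, 0 were higher and 1 lower at an unadjusted p of 0.05.

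Among 6 tested genes of other acyltransferases that share the conserved catalytic domain, 0 passed with edgeR, and 1 was higher and 0 lower at an unadjusted p of 0.05. That 1 was Lpcat4, which re-acylates lysophospholipids and is named in the series title, at 22.3 and 17.9 FPKM against 30.7 and 34.3 FPKM (log2 0.77, SE 0.23, edgeR adjusted p 0.386). Agpat4 was below Lpcat4 in both wild type libraries, and in the knockout libraries they stood at 28.9 and 30.7 FPKM in replicate 9 and at 30.5 and 34.3 FPKM in replicate 12. Gnpat, the most abundant of the list, which starts ether lipid synthesis in peroxisomes, was at 36.3 and 30.6 against 32.9 and 32.2 FPKM. Lpgat1 had a log2 fold change of -0.21 (SE 0.21). With the length trend removed Lpcat4 was at 0.63 and Lpgat1 at 0.09.

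Of the lipid transcription factors and their partners, Pparg differed most. Pparg, the nuclear receptor of fat storage in adipocytes, had 1.32 and 0.354 CPM in wild type cells and 4.93 and 4.65 CPM in knockout cells (log2 2.51, SE 0.67, edgeR adjusted p 0.354). DESeq2 called it, the 1 call of the 51 genes, and the log2 fold change ran from 1.85 to 3.73 over the alternative fits. The genes of the sterol-regulated factors, Srebf2 and Srebf1, did not differ beyond their errors. Srebf2 stood at 422 and 294 CPM versus 382 and 395 CPM (log2 0.12, SE 0.24), and Srebf1 had a log2 fold change of 0.07 (SE 0.22). Mlx, the partner of the carbohydrate-response factor, was at 41.6 and 26.6 CPM versus 37.5 and 53.1 CPM. With edgeR 0 of the 10 tested genes passed, and the unadjusted p was under 0.05 for 1 higher and 0 lower gene.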

How the data were processed

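Per the labels' protocols, TRIzol was used to extract RNA, and the libraries were read on Illumina HiSeq. The submitters' processing notes name Bowtie2, RSEM and the builds GRCm38.p6 and mm10, with versions not stated. The table the authors deposited gives RSEM expected counts, which share ambiguous reads between genes. Its second value has no stated unit and was taken as FPKM made by the authors, because its sum differed between libraries (492817 to 576341) and count over value gave a stable length per gene. The 4 deposited columns of group averages were not used.

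Expected counts were rounded, filtered with filterByExpr (minimum count 10, 12816 genes left) and scaled by TMM. Genotypes were compared with the two-sided robust quasi-likelihood F test of edgeR 4.0.16 (limma 3.58.1, R 4.3.3), Benjamini-Hochberg adjusted over all genes at 0.05, and the F statistic gave each SE. The fit and the removal of the length trend (lowess, span 0.3) were tested on simulated data. Alternatives were other scalings and filters, DESeq2 1.42.0, robust limma-voom, the length trend and leaving out each library.

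The members, the 6 pathway lists and the marker lists were chosen with earlier results of these data known. The rule named the 9 members, Setd2, in each list any called gene (otherwise the 2 with the smallest p) and the gene of highest FPKM, the 3 genes most like Agpat4, and its neighbours within 500 kb. Gk, Gpd1l, Acsl1, Acsl3, Acsl4, Lpin1, Lpin2, Cds2, Dgkd, Dgkq, Dgkz, Pld2 and Srebf1 were named after their values were seen. Coordinates and start-site sequences came from the RefSeq tables of GRCm38.p6, which held 99.3% of the gene IDs. Some genes that the lists or the naming rule hold are not reported here.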

Additional observations from a re-analysis of the deposited data

How the results depend on the processing

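No paired analysis was possible because the groups share no replicate number. Over all genes edgeR called 1 higher and 0 lower, against 48 and 33 with no filter on low counts and 89 and 97 in DESeq2. With 1 library left out, the counts ran from 0 to 98 higher and from 0 to 70 lower. Both highest counts came without wild type replicate 1, there were 22 and 8 without wild type replicate 6, and the count of 0 higher came without knockout replicate 12. A lone library is then assumed to vary like the other group. Of the pathway genes 0 were called higher, against 1 in DESeq2 and, with 1 library left out, 0 to 2 (2 without wild type replicate 1). The median of the 9 members ran from 0.06, without knockout replicate 12, to 0.34, without knockout replicate 9. On the CPM scale, which is not per length, Agpat4 made up 1.03% of the AGPAT sum in wild type and 11.3% in knockout, against 1.77% and 16.6% per length. With 1 library of a group left out (chosen after seeing the data) the shares were 1.69% to 1.85% and 15.9% to 17.2%. The other scalings, the minimum count of 50, limma-voom and the length trend kept the counts of called genes within 1.5 times. Agpat4 and Gpat3 rest on wild type counts of 94 to 199.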
